A study of Mus musculus with 10 samples.

Results

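The genes described are 35 genes of the skeletal muscle contractile apparatus and its calcium handling, out of 52636 genes in the count table. They were chosen by name, as genes that encode sarcomere proteins, calcium-release and calcium-storage proteins and muscle energy enzymes, and each was matched to a mouse Ensembl identifier through its symbol. By known fibre preference, 14 were treated as fast fibre genes, 7 as slow fibre genes and 14 as genes of both fibre kinds. Expression was measured by bulk sequencing of polyadenylated RNA from 10 mouse melanoma tumours, so that a value is an average over every cell in the piece of tissue. All 10 tumours carried BrafCA, a Cre-activated oncogenic allele of the kinase gene Braf, and Cdkn2af/f, a floxed tumour suppressor locus. Arf6Q67L, which keeps the small GTPase ARF6 in its active state, was added to that genotype in 6 tumours, and 4 tumours without it were the controls. The labels name no Cre driver, tumour site, age, sex or litter, and they do not say whether each tumour came from a separate animal, so p-values measure the spread between these tumours.

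Skeletal muscle contracts when a voltage sensor in the membrane opens the ryanodine receptor, calcium leaves the sarcoplasmic reticulum and binds troponin C, and myosin heads then pull on actin. Fast and slow fibres build much of this machine from different genes: each has its own myosin heavy chain, troponin subunits and calcium pump. The calsequestrins are less cleanly divided between them. Mouse skin lies over a thin sheet of striated muscle, the panniculus carnosus, and mature sarcomere genes are not part of the usual programme of melanocytes.

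Promoter windows, the 250 bases before an annotated start, were found for 28 of the 35 genes in a RefSeq table of GRCm38.p6, as 34 windows. Windows are shown for a fast myosin chain (Myh4, chr11:67237562-67237811, plus strand), the slow myosin chain (Myh7, chr14:54994627-54994876, minus strand) and muscle creatine kinase (Ckm, chr7:19410844-19411093, plus strand). Myh4 and Myh7 are a fast and a slow form of the same part, and Ckm is a widely used muscle marker. Capitals mark CANNTG, the E-box letters bound by the myogenic factors of the MyoD family.
Myh4: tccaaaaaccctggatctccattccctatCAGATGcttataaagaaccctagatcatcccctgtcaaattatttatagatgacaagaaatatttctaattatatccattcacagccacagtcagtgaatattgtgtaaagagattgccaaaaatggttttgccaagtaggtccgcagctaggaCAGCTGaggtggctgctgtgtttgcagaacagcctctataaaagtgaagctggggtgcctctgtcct
Myh7: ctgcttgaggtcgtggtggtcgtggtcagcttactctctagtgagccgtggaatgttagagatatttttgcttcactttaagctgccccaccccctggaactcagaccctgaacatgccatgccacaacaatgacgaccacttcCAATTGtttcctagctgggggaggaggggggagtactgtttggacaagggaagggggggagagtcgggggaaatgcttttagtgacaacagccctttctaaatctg
Ckm: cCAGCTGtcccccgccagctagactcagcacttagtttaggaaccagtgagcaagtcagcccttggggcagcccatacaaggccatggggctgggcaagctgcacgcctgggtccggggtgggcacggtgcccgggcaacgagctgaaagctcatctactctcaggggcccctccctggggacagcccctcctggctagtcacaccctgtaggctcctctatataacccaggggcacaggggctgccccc
Searched on both strands, CANNTG lay in 88.2% of the 34 windows and in 66.2% of 32851 windows of the same length over all genes. The narrower form CAGCTG, which is also a CANNTG match, lay in 47.1% of the 34 windows, those of Myh4 and Ckm included, and in 13.0% of all windows. CTA and TAG with 4 bases of any kind between lay in 2.9% of the 34 windows and 3.2% of all windows. That pattern only approximates MEF2 sites, so these shares do not measure how common such sites were. The TATA letters TATAAA were present in 17.6% and 12.4%. These matches describe letters only and were not tied to any binding measurement.

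The 35 genes took from 0.00297% to 0.194% of a library's counts, a 65.4-fold range, and both ends of it were control tumours. Control 4 had the highest share at 0.194% (exact binomial 95% interval 0.193 to 0.196). The other controls had 0.00891%, 0.00406% and 0.00297% in controls 1, 2 and 3. The control group therefore held 1 library far above its other 3. Arf6Q67L tumours 2, 3, 4 and 5 had shares of 0.109%, 0.0551%, 0.106% and 0.139%. Arf6Q67L tumours 1 and 6 had 0.00502% and 0.0162%. The 10 libraries thus lay in a higher and a lower set of 5 each, divided by a 3.40-fold step, and the next widest step between neighbours was 1.92-fold. Group medians were 0.0804% with Arf6Q67L and 0.00649% in controls, and the groups overlapped over nearly their whole range. Acta1, the skeletal alpha-actin of the thin filament, was the most counted of the 35 genes in 7 libraries, whereas Ttn led in Arf6Q67L tumour 1 and Eno3 in controls 2 and 3. In bulk tissue, fewer muscle fibres and less muscle RNA per fibre cannot be told apart.

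**Figure D1:**
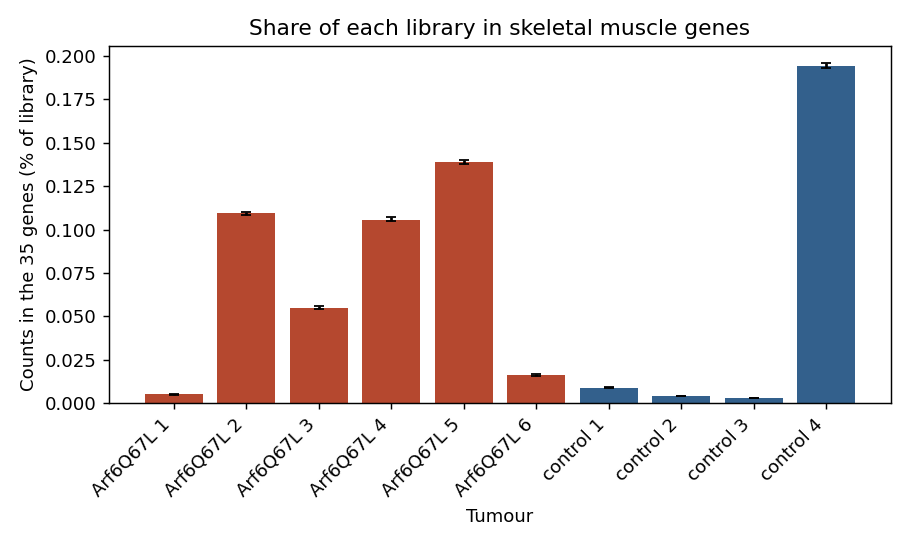
Share of each library's counts that fell in the 35 genes (percent), 1 value per tumour with exact binomial 95% intervals, by genotype. Control 4, at 0.194%, is above all Arf6Q67L tumours, and the other 3 controls lie at or below 0.00891%.

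Libraries held 31372896 to 37918116 counts with Arf6Q67L and 28635414 to 40869091 in controls. Levels of single genes are given as CPM, the count scaled to a common library size, with TMM factors that correct the size for composition. A count of 0 allows up to 3 counts, or 0.0734 to 0.105 CPM depending on the library. Intervals and floors cover counting error only.

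The 5 libraries with the highest share, Arf6Q67L tumours 2 to 5 and control 4, also held the 5 highest CPM values of 32 of the 35 genes taken singly. The same was true of 1.02% of the 17286 genes tested. The share is a sum over these same genes, so this count describes how evenly they moved and is not a separate finding. Exceptions were Tnni1 and Myl3, in which control 2 was among the 5 highest, and the almost uncounted Tnnc2. Control 4 was the highest tumour for 16 genes, Arf6Q67L tumour 5 for 10, and Arf6Q67L tumour 2 for 7. In control 2, 14 genes had at most 3 counts, and 8 of them had 0. Control 3 had 16 such genes, 7 of them at 0.

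**Figure D2:**
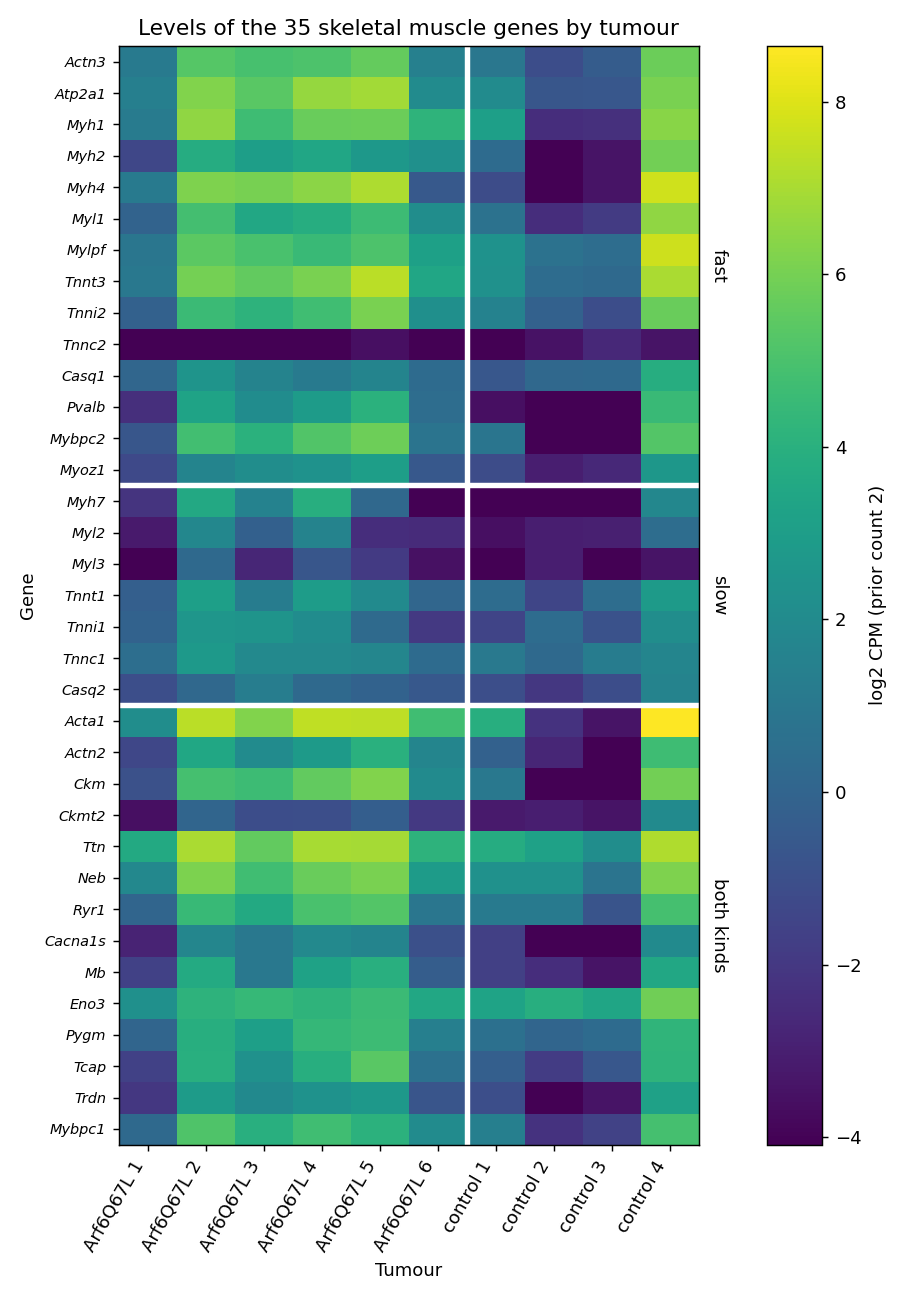
Level of each of the 35 genes in each of the 10 tumours, as log2 CPM on a colour scale, with genes ordered by fibre kind and tumours by genotype. Arf6Q67L tumours 2 to 5 and control 4 are high across most genes, and controls 2 and 3 are low.

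The skeletal actin and the fast myosin chains differed widely between tumours. Acta1 ran from 4.41 to 170.3 CPM (median 117) with Arf6Q67L and stood at 15.0, 0.157, 0.0352 and 400.3 CPM in controls 1 to 4. Myh4, the myosin heavy chain of the fastest fibres, ran from 0.629 to 137 CPM (median 69.1) with Arf6Q67L and stood at 0.405, 0, 0.0352 and 213 CPM in the controls. For both genes control 4 exceeded every Arf6Q67L tumour while control 3 held 1 count, so the groups overlapped completely. Myh1, a fast chain of intermediate fibres, ran from 2.25 to 91.0 CPM (median 39.2), against 8.61, 0.126, 0.141 and 83.1 CPM in controls 1 to 4. Myh2, the chain of fast oxidative fibres, ran from 0.325 to 13.8 CPM (median 7.43), against 1.24, 0, 0.0352 and 60.6 CPM. Control 4 was the highest tumour for Myh2, whereas Arf6Q67L tumour 2 was for Myh1. Myh7, the slow chain, ran from 0 to 15.0 CPM (median 2.01) with Arf6Q67L and was at 0 in controls 1, 2 and 3 and at 3.39 CPM in control 4. Its highest value lay in Arf6Q67L tumour 4, so the slow chain did not peak in the tumour with the most fast myosin.

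Among myosin light chains the fast forms peaked in control 4 as well. Mylpf, the fast regulatory light chain, ran from 1.84 to 42.6 CPM (median 27.6) with Arf6Q67L and stood at 5.14, 1.57, 1.30 and 202 CPM in the controls. Myl1, the fast essential light chain, ran from 0.920 to 28.6 CPM (median 13.1), against 1.60, 0.126, 0.211 and 91.3 CPM. The slow regulatory light chain Myl2 was scarce, at 0.0541 to 3.47 CPM (median 0.480) with Arf6Q67L and 0.0253, 0.0628, 0.0704 and 1.34 CPM in the controls. Its highest tumour was Arf6Q67L tumour 2. The slow essential light chain Myl3 did not pass the low-count filter and reached 1.13 CPM in the same tumour.

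Troponin T and I are the tropomyosin-binding and inhibitory subunits of the thin filament switch, and each comes in a fast and a slow form. Fast Tnnt3 ran from 1.98 to 160.4 CPM (median 55.6) with Arf6Q67L and stood at 4.99, 1.26, 1.13 and 132 CPM in controls 1 to 4. Slow Tnnt1 ran from 0.784 to 8.51 CPM (median 3.13), against 1.27, 0.314, 1.30 and 7.11 CPM. Arf6Q67L tumour 5 had the most Tnnt3 but not the most Tnnt1, which peaked in Arf6Q67L tumour 2. Fast Tnni2 ran from 0.866 to 68.0 CPM (median 20.95) with Arf6Q67L and stood at 2.86, 0.848, 0.423 and 53.9 CPM in the controls. Slow Tnni1 ran from 0.200 to 6.01 CPM (median 2.74), against 0.304, 1.29, 0.493 and 4.42 CPM. Per kilobase of exon, the level of Tnni2 was above that of Tnni1 in all 10 tumours, least so in controls 2 and 3, at 0.567 against 0.358 and 0.282 against 0.137 CPM per kilobase. Tnni2 and Tnnt3 are neighbours on chromosome 7 (142441808 to 142444410 and 142498836 to 142516009, GRCm38).

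Troponin C, the calcium sensor, behaved unlike the other troponins. Slow and cardiac Tnnc1 varied by 5.81-fold, the least of the 35 genes apart from the almost uncounted Tnnc2, at 1.23 to 6.75 CPM (median 3.49) with Arf6Q67L and 2.03, 1.16, 2.32 and 3.25 CPM in the controls. Fast Tnnc2 had between 0 and 3 counts in every library, including control 4, where its partner subunits Tnnt3 and Tnni2 had 132 and 53.9 CPM. Of the exon bases of Tnnc2 (chromosome 2, 164777161 to 164779967, minus strand), 74.0% lie inside exons of Ube2c on the opposite strand. Across protein-coding genes, an average of at most 3 counts per library was found for 94.6% of 56 genes with over 90% of their exon bases shared in this way. The figure was 27.1% of 133 genes that share 50 to 90%, and 35.3% of 15421 genes that share none. The libraries were made with a strand-specific kit, the strand setting of the counting is not given in the sources used here, and the part of this overlap in the level of Tnnc2 was not tested. Without strand in the counting, reads of genes such as Mb (31.9% of exon bases shared), Atp2a1 (21.9%), Ckm (15.5%) and Myh7 (13.3%) could also not be told from those of their antisense partners.

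Calcium handling and energy genes followed the same tumours. Atp2a1, the fast fibre calcium pump SERCA1, ran from 2.62 to 118 CPM (median 57.7) with Arf6Q67L and stood at 4.10, 0.565, 0.599 and 67.8 CPM in the controls. Ryr1, the calcium release channel, ran from 1.001 to 37.8 CPM (median 17.4), against 2.20, 2.11, 0.528 and 29.2 CPM. Both were highest in Arf6Q67L tumour 5 rather than in control 4. Pvalb, a calcium buffer of fast fibres, ran from 0.135 to 16.4 CPM (median 5.89), against 0.0253, 0, 0 and 23.3 CPM. Casq1, a calsequestrin that stores calcium in the reticulum and was treated here as the fast form, ran from 1.03 to 5.59 CPM (median 2.56), against 0.583, 1.10, 1.13 and 14.1 CPM. Casq2, its slow and cardiac form, ran from 0.433 to 2.42 CPM (median 0.993), against 0.431, 0.189, 0.423 and 2.98 CPM. The calsequestrins varied far less than the pump, by 24.3-fold for Casq1 and 15.8-fold for Casq2 against 209-fold for Atp2a1. Cacna1s, the voltage sensor, reached 3.99 CPM and Trdn, the triadin that links Ryr1 to calsequestrin, 9.18 CPM, both in control 4.

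Ckm, the cytosolic creatine kinase that buffers ATP, ran from 0.460 to 74.0 CPM (median 27.0) with Arf6Q67L and stood at 1.95, 0, 0 and 61.2 CPM in the controls. Its mitochondrial counterpart Ckmt2 was scarce, at no more than 0.992 CPM with Arf6Q67L and 3.99 CPM in control 4. Mb, the oxygen store myoglobin, ran from 0.271 to 15.4 CPM (median 5.67), against 0.253, 0.126, 0.0352 and 11.7 CPM. Pygm, muscle glycogen phosphorylase, spanned 25.3-fold and Eno3, the muscle enolase, 11.8-fold. Eno3 stayed at 9.75, 14.8 and 10.5 CPM in controls 1, 2 and 3, where Ckm was at or below 1.95 CPM. Controls 2 and 3, with 0 counts of Ckm, therefore kept measurable Eno3.

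Ttn, the giant spring protein of the sarcomere, ran from 12.5 to 128 CPM (median 85.6) with Arf6Q67L and stood at 14.0, 9.11, 4.47 and 142 CPM in the controls. Neb, the thin filament ruler nebulin, had a like range, with a low of 1.73 CPM in control 3 and a high of 71.6 CPM in control 4. Of the Z-disc genes, Actn3, the fast fibre alpha-actinin, reached 55.8 CPM and Actn2 25.4 CPM in control 4, whereas Tcap (42.5 CPM) and Myoz1 (8.22 CPM) were highest in Arf6Q67L tumour 5. Of the thick filament regulators, fast Mybpc2 peaked at 56.6 CPM in Arf6Q67L tumour 5 and Mybpc1 at 35.1 CPM in Arf6Q67L tumour 2. The genes of both fibre kinds thus divided their maxima among control 4 and Arf6Q67L tumours 5 and 2, as the fast genes did apart from Tnnc2.

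Fast fibre genes outweighed slow fibre genes in every tumour, but by very unequal amounts. Summed CPM per kilobase of exon over the 14 fast genes was 52.98 times that of the 7 slow genes in Arf6Q67L tumour 5 and 50.5 times in control 4. It was 12.04, 16.3 and 14.3 times in Arf6Q67L tumours 2, 3 and 4, whose shares of muscle counts were also high. Arf6Q67L tumour 6 had a ratio of 14.5 although its share was low, while Arf6Q67L tumour 1 had 3.40. Controls 1, 2 and 3 had ratios of 5.45, 2.21 and 1.12. Medians were 14.4 with Arf6Q67L and 3.83 in controls, with overlapping groups. In controls 2 and 3 the slow sum rested largely on Tnnc1, at 1.12 and 2.23 CPM per kilobase out of sums of 1.75 and 3.15. The same held in control 1 (1.947 of 2.777) and in Arf6Q67L tumours 1 (1.325 of 2.134) and 5 (3.148 of 5.884). Tnnc1 was also the larger part of the slow sum in Arf6Q67L tumour 6. It was the smaller part in Arf6Q67L tumours 2, 3 and 4 and in control 4. Where Tnnc1 was the larger part, the denominator of the ratio was thus mainly 1 gene.

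The myosin heavy chains showed which fast fibre kind led. The shares that follow are of the counts of Myh4, Myh1, Myh2 and Myh7 together, with exact binomial 95% intervals. In Arf6Q67L tumour 5, Myh4 took 68.5% (67.5 to 69.6) of 7669 counts and Myh7 0.561% (0.406 to 0.755). In Arf6Q67L tumour 4, Myh4 took 52.7% (51.4 to 54.1) of 5309 counts and Myh7 9.04% (8.28 to 9.85). The slow chain thus took unequal parts in these tumours, whose shares of library counts in the 35 genes were 0.139% and 0.106%. In Arf6Q67L tumour 2, Myh1 led with 48.2% of 6854 counts, ahead of Myh4 with 38.1%. Myh4 led in Arf6Q67L tumour 3 with 64.1% of 3240 counts and in control 4 with 59.2% (58.2 to 60.1) of 10742. Control 4 also had 16.8% (16.1 to 17.6) Myh2, above the 3.26% to 8.09% of Arf6Q67L tumours 2 to 5 and below the 20.4% (17.7 to 23.3) of Arf6Q67L tumour 6.

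Arf6Q67L tumour 6 and control 1 had another composition. Myh1 took 76.9% (73.9 to 79.8) of 832 counts in the former and 84.0% (80.0 to 87.4) of 405 counts in the latter. Myh4 took only 2.64% (1.66 to 3.98) and 3.95% (2.28 to 6.34), and Myh7 had 0 counts in both, which allows up to 0.361% and 0.741%. These were 1 tumour of each genotype, so that the Myh1-led pattern was seen with and without Arf6Q67L. Arf6Q67L tumour 1 had near-equal Myh4 (43.6%) and Myh1 (46.4%) in 179 counts. Controls 2 and 3 had 4 and 6 counts in all and allow no statement. Myh2, Myh1 and Myh4 lie beside each other on chromosome 11 (67171027 to 67260446, GRCm38) and are close paralogs, and how reads matching several places were counted is not given in the sources used here, so the split between them is uncertain.

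**Figure D3:**
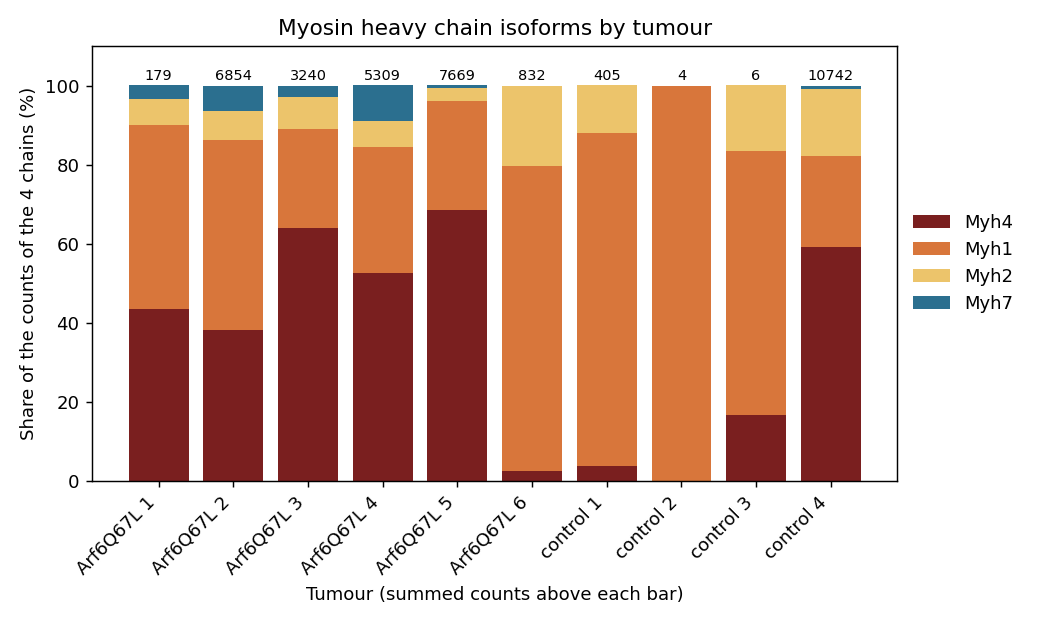
Percent of the counts of 4 myosin heavy chain genes that fell in each of them, by tumour, with the total number of counts given for each. Myh1 leads in Arf6Q67L tumour 6 (76.9%) and control 1 (84.0%), and Myh4 leads in Arf6Q67L tumour 5 (68.5%) and control 4 (59.2%).

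Ratios of a slow gene to its fast counterpart did not differ by genotype beyond the spread between tumours in the troponin I, troponin T and calsequestrin pairs. Of the other planned pairs, Tnnc1 and Tnnc2 was not computed because of the near absence of Tnnc2 counts. Myh7 over Myh4 was computed, but its result is not given because Myh7 had 0 counts in controls 1, 2 and 3. The log2 ratio of Tnni1 to Tnni2 averaged -2.69 ± 2.04 (SD, n = 6) with Arf6Q67L and -1.46 ± 2.14 (SD, n = 4) in controls (two-sided exact permutation p = 0.386). For Tnnt1 over Tnnt3 the averages were -3.38 ± 1.38 and -1.94 ± 1.80 (exact permutation p = 0.186). These averages weigh each tumour equally, low ones included. The edgeR log2 differences, which follow group levels, were 0.91 for Tnni1 and 0.71 for Tnni2, and 0.69 for Tnnt1 and 0.75 for Tnnt3, so the direction of the troponin I ratio turned between these measures and the troponin T genes nearly equalled each other in the second. Casq2 over Casq1 averaged -1.22 ± 0.70 and -1.54 ± 0.88 (exact permutation p = 0.51). Benjamini-Hochberg adjusted p-values were 0.51 for each pair given here, over the 4 pairs computed, Myh7 over Myh4 included. The smallest p that the 210 splits allow is 0.00476. With single tumours left out, the difference of Arf6Q67L minus control ranged from -1.95 to -0.56 for troponin I, from -2.20 to -0.73 for troponin T and from 0.09 to 0.70 for the calsequestrins. Without control 4 it was -2.20 for troponin T (exact permutation p = 0.0714), -1.95 for troponin I (exact permutation p = 0.214) and 0.09 for the calsequestrins (exact permutation p = 0.857). These are ratios of log2 CPM with no length correction, so their level has no meaning between genes and only the difference between tumours does.

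Whether a fast gene and its slow counterpart rose together across tumours was examined without a pooled correlation for 3 pairs, because their tumours fell into separate sets. The widest step between neighbouring tumours lay between the 5 highest and the 5 lowest for Myh4 (4.93 on the log2 scale), Tnnt3 (2.14) and Tnni2 (1.89). Casq1 and Casq2 did not have their widest step there. They gave r = 0.828 (permutation p = 0.00257) and rho = 0.806 (permutation p = 0.00635) over 10 tumours, the only relation computed. The 5 highest values of both genes still lay in Arf6Q67L tumours 2 to 5 and control 4. These coefficients therefore include that division, and their p-values are not separate evidence of a relation between the calsequestrins. Without control 4 and Arf6Q67L tumour 2, the tumours farthest from the median of Casq1, r was 0.769 (exact permutation p = 0.0264, n = 8). Within the 6 Arf6Q67L tumours r was 0.66 (exact permutation p = 0.151), and 4 controls are too few for a value.

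By genotype, 0 of the 33 genes that passed the low-count filter differed in edgeR's quasi-likelihood test after Benjamini-Hochberg adjustment over all 17286 genes tested, where the share of all genes called was 0.0%. Adjusted p-values of the 33 lay between 0.638 and 0.995. At an unadjusted p under 0.05 the count was again 0 of 33, against 11.7% of all genes. DESeq2 also called 0 of these genes, with 2.06% of all genes called, and had 1 of the 35, Myl3, at an unadjusted p under 0.05, against 8.65% of all genes. Limma-voom with sample weights called 0, and 0.0116% of all genes. Of the 35 genes, 0 had groups that did not overlap, against 2.45% of all genes tested. The log2 fold change of Arf6Q67L over control was positive for 26 and negative for 7, with a median of 0.83, against -0.002 over all genes tested. Medians were 0.71 over 13 fast genes, 0.80 over 6 slow genes and 0.89 over 14 genes of both kinds.

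None of the single differences passed the test, although some were larger than their SE. Myh7 had the largest log2 difference at 2.63 (SE 1.95, edgeR adjusted p = 0.638), followed by Myl2 at 1.77 (SE 1.40, edgeR adjusted p = 0.664). Atp2a1, the fast calcium pump, was at 1.64 (SE 1.46). At the other end were Mylpf at -1.15 (SE 1.31), Ckmt2 at -1.12 (SE 1.23) and Myh2 at -1.05 (SE 1.55), each highest in control 4. Tnnc1 had the smallest error of the 33 (0.61, SE 0.49, edgeR adjusted p = 0.670). Acta1 stood at -0.05 (SE 1.64), Ckm at 0.93 (SE 1.70) and Myh4 at 0.19 (SE 1.91), so that fold changes of several-fold in either direction lay within the error of these common muscle markers.

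Control 4 decided these values. Without it the median log2 difference of the 33 genes was 4.19, positive for 33 of 33, with 4.42 for fast, 2.10 for slow and 4.16 for genes of both kinds. At an unadjusted p under 0.05, 30 of 33 were higher with Arf6Q67L, against 4.71% of 17628 genes, and after adjustment 0 of 33 passed in edgeR (adjusted p 0.373 to 0.758). The exceptions at the unadjusted level were Tnni1, Tnnc1 and Eno3. The 33 genes largely rose and fell together across tumours, so counts at an unadjusted p are not counts of separate results. Control 4 had the highest share of library counts in these same genes, so leaving it out moves them together. Acta1 moved from -0.05 to 4.30, Myh4 from 0.19 to 8.52 and Mylpf from -1.15 to 3.15. Fitted values of Myh4, Myh7 and Pvalb without control 4 rest on controls with at most 16 counts and depend on the prior count of the fit. Myl2, Ckmt2, Cacna1s, Mb and Myoz1 likewise had at most 16 counts in each of controls 1 to 3. Ckm and Mybpc2 had 0 counts in controls 2 and 3. Limma-voom, which gives weights to samples, put the median at 3.59 with 33 of 33 positive. Of these, 14 were at an unadjusted p under 0.05 against 5.95% of all genes, and 0 passed after adjustment. Limma-voom also averages log2 levels over tumours, whereas edgeR follows group levels. Limma-voom was not run without weights, so the part of the weights in this median was not tested. Leaving out Arf6Q67L tumour 5 brought the median of the fast genes to 0.03 and that of all 33 to 0.56.

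**Figure D4:**
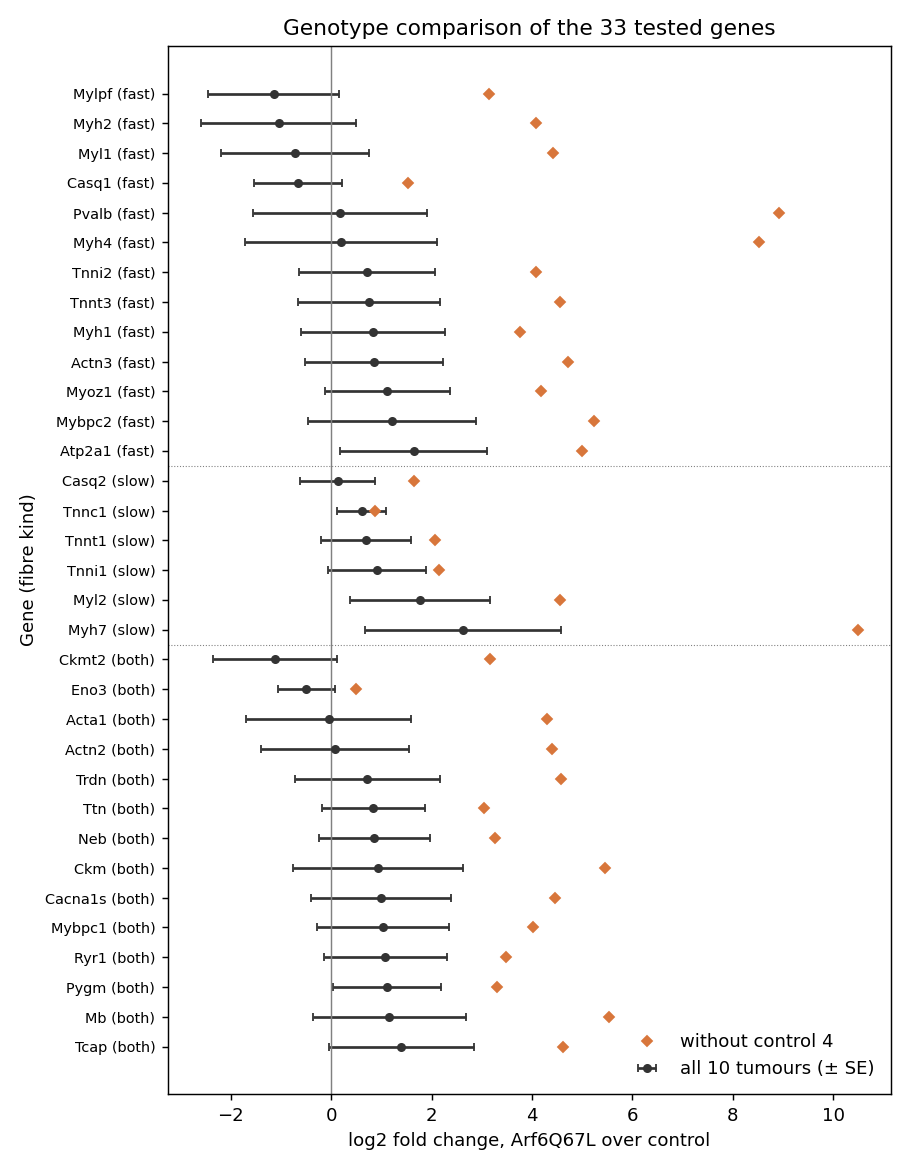
Log2 difference of Arf6Q67L over control for each tested gene from edgeR with all 10 tumours, with its SE, beside the value without control 4. With all tumours values lie between -1.15 and 2.63, and without control 4 all 33 are above 0.

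Other cell type markers were compared across the same tumours. Of 39 other mature skeletal muscle genes, 29 had their 5 highest values in Arf6Q67L tumours 2 to 5 and control 4. Of the 37 tested, 32 had a positive and 5 a negative log2 difference, with a median of 0.33, and 0 passed the test. Lowest unadjusted p-values were those of Jph1, a junction protein of the calcium release unit (0.88, SE 0.43, edgeR adjusted p = 0.459), Trim63, an atrophy ubiquitin ligase (2.83, SE 1.65, edgeR adjusted p = 0.541), Tmod4 (0.60, SE 0.53) and Stac3 (-0.26, SE 0.24). Their summed CPM was 121 to 549 with Arf6Q67L and 116 to 645 in controls, and without Fbxo32 it was 40.6 to 442 and 29.97 to 609 CPM. Fbxo32, another atrophy ligase in this list, did not follow the 35 genes: it was lowest in control 4 at 35.5 CPM and highest in control 1 at 246 CPM.

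Genes of satellite cells and regenerating fibres were mostly scarce. Of the 14 listed, 8 still had their 5 highest values in Arf6Q67L tumours 2 to 5 and control 4, against 1.02% of all genes tested. Pax7, Myf5, Mymk, Mymx and Chrng were at or under 1 CPM in every tumour. The factors Myog and Myod1 reached 5.93 and 2.55 CPM, both in control 4, and Myf6, the factor of mature fibres, 5.40 CPM in Arf6Q67L tumour 2. Of 8 genes tested from 14, 5 had a positive and 3 a negative difference (median 0.69) and 0 passed the test. Embryonic Myh3 (0.84, SE 1.05), Chrnd (-1.21, SE 1.07) and Musk (0.81, SE 0.85) did not pass the test either. Chrna1, a subunit of the muscle acetylcholine receptor, stood at 168 to 320 CPM (median 230) with Arf6Q67L and 180.0, 146, 105 and 30.1 CPM in controls 1 to 4 (log2 difference 1.02, SE 0.41, unadjusted p = 0.0321, edgeR adjusted p = 0.388). Unlike the 35 genes it was lowest in control 4.

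Fat cell markers were highest in control 4. Of 9 adipocyte genes, 8 were highest there, and their summed CPM was 61.5 to 154 with Arf6Q67L and 60.1 to 438 in controls. Cfd was at 51.7 CPM, Adipoq at 18.1, Cidec at 15.1 and Plin1 at 8.88 in control 4, whereas Plin1 was at 0 in Arf6Q67L tumour 3 and control 3. The 8 tested had 1 positive and 7 negative differences, a median of -2.37 and 0 past the test. Smooth muscle genes had a median of -0.07 over 7 of 9 tested, with 0 past the test, and summed to 101.2 to 251 CPM with Arf6Q67L and 83.3 to 427 in controls. Des, the desmin gene, which the list of other skeletal muscle genes also holds, made up 248 of the 427 CPM in control 4, and without it the sums were 70.7 to 123 and 73.5 to 179 CPM. Acta2, smooth muscle actin, had the lowest p (log2 difference -1.55, SE 0.45, unadjusted p = 0.00601, edgeR adjusted p = 0.283), with 35.2 CPM in control 4. Heart genes had a median of -0.04 over 6 of 9 tested, with 0 past the test, and Nppa, Myl7, Actc1 and Mybpc3 were at or under 1 CPM everywhere. Myh6 (log2 difference 2.33, SE 1.54, edgeR adjusted p = 0.595) and Tnni3 (-0.60, SE 0.41, edgeR adjusted p = 0.601) were among the heart genes tested. The part of these cell types in the levels of the 35 genes was not tested.

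Most skin and pigment cell markers were scarce in all tumours. Of 9 keratinocyte genes, 7 were at or under 1 CPM in every tumour, and the list summed to 4.02 to 6.86 CPM with Arf6Q67L and 4.52 to 6.48 in controls. Of 7 melanocyte genes, Tyr and Dct had 0 counts in every library and Tyrp1 and Mlana at most 3, so these defining pigment markers of the labelled melanoma were at or near 0 in all 10 tumours. Mitf was present at 11.1 to 26.1 CPM, and the list summed to 12.9 to 26.8 CPM with Arf6Q67L and 14.0 to 21.3 in controls. Tested members numbered 1 for keratinocytes (Krt10, log2 difference -0.14, SE 0.17) and 2 for melanocytes (median -0.06), and 0 passed the test. The 2 melanocyte genes were Pmel (log2 difference -0.16, SE 0.25) and Mitf (0.03, SE 0.26).

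The genes most like the 35 were ranked by Pearson's r of log2 CPM with the mean log2 CPM of the 33 tested genes, over 10 tumours and 17253 other genes, as a description. Among the 10 highest were Eef1a2 (r = 0.995), Fbxo40 (0.994), Hrc (0.993), Cap2 (0.992), Lmod2 (0.990), Myot (0.989), Ppp1r3a (0.988), Hfe2 (0.987) and Mypn (0.986). Hrc, Lmod2, Myot and Mypn were already in the list of other muscle genes. All points come from the same 10 libraries, which divide into 5 higher and 5 lower ones in these genes.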

How the data were processed

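Polyadenylated RNA of 10 mouse melanoma tumours was sequenced with a strand-specific Illumina TruSeq kit, per the labels' protocols. The authors deposited whole-number read counts for each gene, not normalized. The submitters' processing notes list GRCm38 as build and DESeq2 1.18.0, featureCounts 1.5.1 and STAR 2.5.2b as tools, without roles. Genotype labels gave the groups, and tumour numbers follow accession order. Library identifiers run in order of genotype, so that order and genotype cannot be told apart. GENCODE M21 gave a symbol to 99.7% of the 52636 identifiers.

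The 35 genes, the marker lists, the tests and the rule for naming genes were chosen with earlier results of these data known. Level in every tumour was given for the genes of 5 isoform pairs and for Acta1, Ckm, Atp2a1, Ryr1, Myh1, Myh2, Mylpf, Myl1, Myl2, Ttn, Pvalb and Mb, up to 4 genes of lowest p were named in each other list, together with the scarce satellite genes and the 10 most alike genes (predicted genes, clones and pseudogenes left out, and 1 of the 10 not reported here). Other values named, such as those of Fbxo32, Myog, Myod1 and Myf6, were chosen after they were seen, as was the choice of the calsequestrin pair for correlation.

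For the counts, edgeR 4.0.16 was run under R 4.3.3 on the 17286 genes left by filterByExpr (minimum count 10), with TMM factors, robust glmQLFit, glmQLFTest on genotype, and adjustment over all genes at a threshold of 0.05. SE is the fold change over the root of F, and log2 CPM used a prior count of 2. Alternatives were other size factors, no filter, DESeq2 1.42.0, limma-voom (limma 3.58.1) with sample weights, factors without the 35 genes and each tumour left out. The fit was also tested on simulated data for 6 against 4 tumours (17028 genes). It found 28% of 100 genes with a 2-fold change and 67% of 100 with a 4-fold change, and made 4 false calls. The changed genes were drawn at random from all genes kept. These rates therefore do not describe the 35 genes, whose levels spread widely between tumours. Library totals were 28635414 to 40869091. Within a group, counts of any pair of tumours differed beyond sampling noise (chi-square per gene at least 75.6), so none was counted as a repeat.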

Additional observations from a re-analysis of the deposited data

Results flagged for a closer look

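In groups of 4 to 10 tumours, a tumour was singled out where its gap to the nearest other was a large part of the group's range (above 0.829 of it for 4 tumours and 0.625 for 6). This happened in 9 of 72 group values examined, and chance gives about 1 in 20. Of the 9, 7 were control 4, in which the share of library counts in the 35 genes lay 0.969 of the control range above the next control. Its ratio of fast to slow genes stood apart by 0.912 of the range. For single genes in control 4, the gap was 1.0 of the range for the slow myosin Myh7, 0.94 for the calcium buffer Pvalb, 0.932 for the mitochondrial kinase Ckmt2, 0.865 for the glycogen phosphorylase Pygm and 0.847 for the slow light chain Myl2. All 5 were higher in control 4. Apart from Pygm, these genes had at most 2 counts in each other control, so their log2 levels lie near the lowest that the prior count allows, the gap is largely set by it, and the chance rate above does not apply to them. Among Arf6Q67L tumours, tumour 1 was low for the oxidative fast myosin Myh2, with a gap of 0.712 of the range. Tumour 5 was high for the ratio of fast to slow genes, with a gap of 0.74. These values are not independent of each other, since they come from the same libraries.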

How the results depend on the processing

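The count of the 35 genes past the threshold was 0 in edgeR, with and without filter, other size factors or each tumour left out, in DESeq2 and in limma-voom. The median log2 difference was 3.59 over all tested genes and 4.14 over fast genes in limma-voom with sample weights, and it ranged from 0.42 to 4.19 and from 0.03 to 4.42 when single tumours were left out, highest without control 4. The correlation of Casq1 and Casq2 was 0.66 in Arf6Q67L tumours alone, and 0.731 to 0.88 with 1 tumour left out. Of 21 genes followed, 8 turned direction in some alternative. In limma-voom, values were 6.47 for Acta1, 5.31 for Myh2, 4.14 for Myl1, 2.33 for Mylpf and 0.83 for Casq1, which were negative in edgeR. With 1 tumour left out the ranges were -0.46 to 4.30 for Acta1, -1.46 to 4.08 for Myh2, -1.13 to 4.42 for Myl1, -1.55 to 3.15 for Mylpf and -1.02 to 1.53 for Casq1. They were -0.22 to 8.52 for Myh4, -0.25 to 1.65 for Casq2 and -0.34 to 8.93 for Pvalb. The cause was not tested. No paired analysis was possible because the labels give the groups no shared replicate numbers. Of the 35 genes, 14 in control 2 and 16 in control 3 had at most 3 counts, so single values there carry wide counting error.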

Other observations

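Among genes of the developing muscle and heart lists, Pax3, a factor of early muscle precursors and neural crest, was at 1.31 CPM in Arf6Q67L tumour 4 and at 0 in the other 5 Arf6Q67L tumours, and at 0.203, 0, 0.0704 and 0.0335 CPM in controls 1 to 4. Nppb, the brain natriuretic peptide gene, was at 29.2 to 176 CPM (median 86.0) with Arf6Q67L and at 147, 60.7, 50.6 and 209 CPM in controls 1 to 4, a level far above that of the other heart genes (log2 difference -0.35, SE 0.50, edgeR adjusted p = 0.821). Myl4, the light chain of atrial and embryonic muscle, was at 14.1 CPM in control 4 and at most 5.93 CPM with Arf6Q67L (log2 difference -0.51, SE 0.65, edgeR adjusted p = 0.8). Myh8, the perinatal myosin, reached 1.98 CPM in control 4 and 1.75 CPM in Arf6Q67L tumour 3. All 4 were chosen after their values were seen, although Nppb and Myl4 were also among the heart genes of lowest p.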
